A study of Arabidopsis thaliana with 4 samples.

Results

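Rab GTPases and SNARE proteins run the last steps of membrane traffic in plant cells, and 82 of the 26784 genes in the count table were taken as their members. They were chosen by their gene descriptions, which had to name a Ras-related Rab protein, a RAB GTPase homolog, a syntaxin or a vesicle-associated membrane protein. No expression value entered that choice. The members comprise 44 Rab GTPases, 26 syntaxins or syntaxin-type proteins, 10 vesicle-associated membrane proteins (VAMPs) and 2 pseudogenes. Genes of chromosome 5 beyond position 3070933, among them SYP21, SYP22, VAMP713, VAMP714 and RABF2A, were not analysed here. Sums, shares, ranks, counts by clade and closest relatives below therefore cover only the genes analysed.

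Transcripts were counted in Arabidopsis thaliana seedlings, wild type and of the ecotype Col-0, taken whole, with 2 libraries from seedlings at 6 days post germination (dpg) and 2 libraries from seedlings at 2 dpg. Plants of both ages carried no mutation and received no treatment: after 2 days of stratification they grew at 22 °C in a 12-h photoperiod, on Murashige and Skoog medium to which 0.5% sucrose was added. The study was designed to find transcription factor genes that change during early growth, and the trafficking genes were measured in the same libraries. No label ties a library to its own plants or plate, so the spread behind each p-value is that between 2 libraries of an age and may be technical.

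A Rab GTPase cycles between a GDP-bound form held in the cytosol and a GTP-bound form on a membrane, where it recruits the tethers that catch an arriving vesicle. An R-SNARE on the vesicle, here a VAMP, then pairs with Q-SNAREs on the target, of which syntaxins supply the Qa and Qc helices, and the zipping of the complex fuses both membranes. Different family members mark different compartments: clade A Rabs the trans-Golgi network, recycling vesicles and the cell plate, clade D the step between endoplasmic reticulum and Golgi, clade F endosomes and clade G the vacuole. Flowering plants have an expanded set of clade A Rabs and plasma membrane syntaxins, which serve cytokinesis, tip growth and secretion of wall material.

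The table holds 18336468 and 14845619 reads at 6 dpg and 21217252 and 16478848 reads at 2 dpg, and a count of 3 corresponds to 0.113 to 0.164 CPM. Levels are given as RPKM, which divides a count by the table's gene length and by the scaled library total. A gene was called when edgeR's quasi-likelihood test gave a Benjamini-Hochberg adjusted p under 0.05 over all 16160 genes tested. By that rule 56.6% of all tested genes were called, 28.3% higher and 28.4% lower at 6 dpg. Seedling age moved most of the transcriptome, so each count of members is to be read against these shares. Fewer cells of a type and less RNA per cell cannot be told apart in whole seedlings.

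Of the 82 members, 68 passed the filter on low counts and were tested. The other 14 were too low: 4 had no read in any library (VAMP712, RABA1H and both pseudogenes), and the rest, among them the pollen syntaxins SYP124, SYP125 and SYP131, had at most 20 reads in a library. Among the 68, 12 were called higher (17.6%), 20 were called lower (29.4%) and 36 were not called. The share called lower was close to that of all genes, and the share called higher was below it. Libraries of the ages did not overlap in 56 members (82.4%), against 80.6% of all tested genes. Each later mention of ages that did not overlap is to be read against that share. The median log2 fold change of 6 over 2 dpg was -0.24 for the members and -0.0011 for all tested genes. Called changes of at least 2-fold were seen in 4 members higher (5.88%) and 8 lower (11.8%), against 11.6% and 12.5% of all tested genes.

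**Figure D1:**
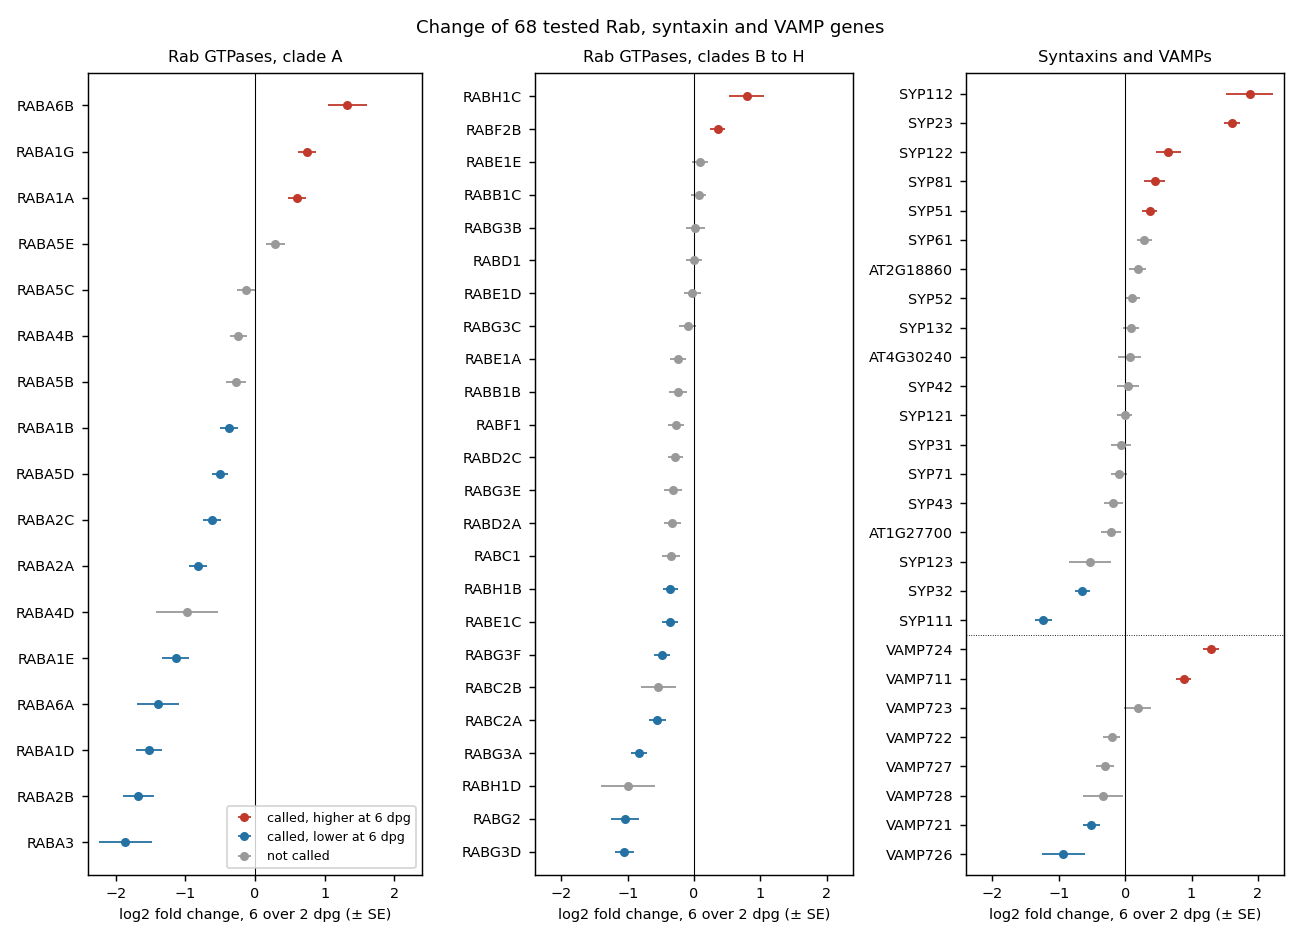
Log2 fold change of 6 over 2 dpg (x axis, points, with SE bars) for each of the 68 tested members (y axis), in panels for clade A Rabs, the other Rab clades, and syntaxins above VAMPs. Red points were called higher, blue points were called lower and grey points were not called; clade A spans the widest range of the Rab panels, and SYP112 and SYP23 stand at the top of the SNARE panel.

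Counts are given here by role, and differences between roles were not tested. Among 41 tested Rab GTPases 5 were called higher and 16 lower (39.0%), with a median log2 fold change of -0.33. Among 19 tested syntaxins 5 were called higher and 2 lower, with a median of 0.069, and among 8 tested VAMPs 2 were called each way, with a median of -0.25. Summed over its members, the VAMP level was 538 and 495 RPKM at 6 dpg, against 376 and 345 RPKM at 2 dpg. VAMP711 and VAMP724 carried that difference: the other VAMPs summed to 136 and 134 RPKM at 6 dpg, against 183 and 158 RPKM at 2 dpg. The summed syntaxin level was 453 and 438 RPKM at 6 dpg, against 364 and 359 RPKM at 2 dpg, and without SYP23 the sums overlapped, at 333 and 321 RPKM at 6 dpg and 327 and 318 RPKM at 2 dpg. Rab transcripts summed to 1299 and 1214 RPKM at 6 dpg, against 1527 and 1418 RPKM at 2 dpg. The ages did not overlap in the full sum of any role. The medians, and the direction of the Rab sum, depend on the scaling: with 168 genes of cytosolic ribosomal proteins as the yardstick (ribosomal protein scaling), the median of all tested genes moved to 0.32 and that of the members to 0.088, with 14 members called higher and 8 lower. Under that scaling the Rab median was -0.0047, with 6 called higher and 7 lower, and the Rab sums overlapped, at 1426 and 1387 RPKM at 6 dpg and 1211 and 1426 RPKM at 2 dpg. The sums of the VAMPs and of the syntaxins stayed higher at 6 dpg under it.

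**Figure D2:**
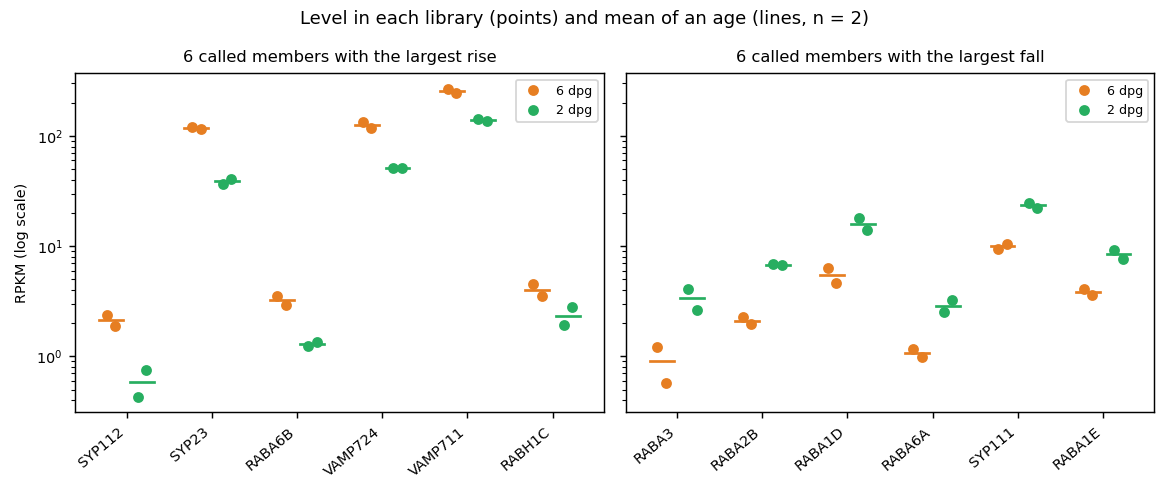
RPKM (y axis, log scale) in each library for the 6 called members with the largest rise (left) and the 6 with the largest fall (right), 6 dpg in orange left of 2 dpg in green; points are libraries and lines the mean of an age. In all 12 genes the libraries of one age lie apart from those of the other, and the genes span levels from 0.431 to 268 RPKM. The genes were picked for their called change, and libraries of the ages did not overlap in 80.6% of all tested genes.

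Within clade A, the trans-Golgi and recycling Rabs, 9 of 17 tested members fell, 3 rose and 5 were not called, with a median log2 fold change of -0.50 (5 lower and 4 higher under ribosomal protein scaling). Of RABA2, which marks the trans-Golgi network and the growing cell plate, all 3 members analysed fell. RABA2B (chromosome 1, 2276053 to 2277154, plus strand) had 2.26 and 1.97 RPKM at 6 dpg, against 6.89 and 6.72 RPKM at 2 dpg, a log2 fold change of -1.68 ± 0.22 (SE, adjusted p = 0.000312). Both older libraries were far below both younger ones. RABA2A had 19.3 RPKM in both libraries at 6 dpg, against 36.4 and 31.5 RPKM at 2 dpg (log2 fold change -0.82). RABA2C, its more abundant relative, had 33.4 and 29.4 RPKM at 6 dpg, against 51.6 and 45.2 RPKM at 2 dpg (log2 fold change -0.63), and the ages again did not overlap. The RABA2A and RABA2C calls were lost under ribosomal protein scaling (adjusted p = 0.0777 and 0.269), and that of RABA2C also without 6 dpg replicate 2 (adjusted p = 0.0512).

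RABA3, which shares the cell plate and trans-Golgi network with RABA2, showed the largest fall of any called member. It had 1.23 and 0.573 RPKM at 6 dpg, against 4.05 and 2.66 RPKM at 2 dpg, a log2 fold change of -1.86 ± 0.38 (SE, adjusted p = 0.00295). These levels rest on 29 and 11 reads at 6 dpg and 97 and 52 reads at 2 dpg. The lowest library at 2 dpg still had more RABA3 than the highest at 6 dpg.

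RABA1, the largest subgroup of the clade, which works on transport from the trans-Golgi network to the plasma membrane, divided. RABA1A rose, with 46.5 and 43.1 RPKM at 6 dpg, against 27.3 and 32.1 RPKM at 2 dpg (log2 fold change 0.60, adjusted p = 0.00416). RABA1G rose too, with 20.9 and 22.4 RPKM at 6 dpg, against 12.2 and 13.5 RPKM at 2 dpg (log2 fold change 0.75, adjusted p = 0.00138). For both genes every older library was above every younger one. RABA1D fell, with 6.33 and 4.67 RPKM at 6 dpg, against 17.9 and 13.9 RPKM at 2 dpg (log2 fold change -1.52 ± 0.19 SE, adjusted p = 0.000231). RABA1E fell to 4.08 and 3.59 RPKM at 6 dpg, against 9.32 and 7.62 RPKM at 2 dpg (log2 fold change -1.14 ± 0.20 SE, adjusted p = 0.00126). RABA1B, with 40.8 and 38.6 RPKM at 6 dpg, against 55.2 and 47.3 RPKM at 2 dpg, was called lower by a small margin (log2 fold change -0.37, adjusted p = 0.033). The ages did not overlap in these 3 genes either, as was the case in 80.6% of all tested genes. The RABA1B call was lost in 3 of the 4 fits that left out a library (log2 fold change -0.41 to -0.25) and under DESeq2 (adjusted p = 0.0672). Its log2 fold change was -0.18 with length-adjusted offsets (adjusted p = 0.227) and -0.04 under ribosomal protein scaling (adjusted p = 0.895).

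Shares within the subgroup do not depend on how libraries are scaled against each other. RABA1A made up 39.2 and 38.4% of the summed RABA1 RPKM at 6 dpg, against 22.4 and 28.0% at 2 dpg. RABA1D made up 5.33 and 4.16% at 6 dpg, against 14.7 and 12.1% at 2 dpg. The summed level of the RABA1 genes analysed overlapped between the ages, at 119 and 112 RPKM at 6 dpg and 122 and 114 RPKM at 2 dpg. The make-up of these genes thus changed at a similar total. Under ribosomal protein scaling their total was 130 and 128 RPKM at 6 dpg, against 96.6 and 115 RPKM at 2 dpg. The clade A members analysed summed to 309 and 282 RPKM at 6 dpg, against 356 and 333 RPKM at 2 dpg. Their share of the RPKM of all Rabs analysed overlapped, at 23.8 and 23.2% at 6 dpg and 23.3 and 23.5% at 2 dpg.

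RABA6A and RABA6B were called in opposite directions. Their proteins share 83.0% of aligned residues, and each is the other's closest relative among the members. RABA6B (chromosome 1, 6265416 to 6266937, minus strand) had 3.57 and 2.94 RPKM at 6 dpg, against 1.25 and 1.36 RPKM at 2 dpg, a log2 fold change of 1.32 ± 0.28 (SE, adjusted p = 0.00351). RABA6A (chromosome 1, 27686992 to 27688127, plus strand) had 1.18 and 0.985 RPKM at 6 dpg, against 2.51 and 3.24 RPKM at 2 dpg, a log2 fold change of -1.39 ± 0.30 (SE, adjusted p = 0.00424). Each gene separated the ages in full, and RABA6B made up 75.2 and 74.9% of the RABA6 pool at 6 dpg, against 33.3 and 29.5% at 2 dpg. Both are low transcripts, with 17 to 73 reads in a library. The upstream gene CML27, on the same strand, overlaps 21.6% of the RABA6B span and itself fell by 0.64 on the log2 scale, with 1358 and 1156 reads at 6 dpg, against 2479 and 1574 reads at 2 dpg; the sources used here do not say how reads in the overlap were counted. The coding sequences of RABA6A and RABA6B match at 83.7% of aligned bases.

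Upstream sequence of the pair is shown because its genes, each the other's closest relative among the members, were called in opposite directions. It was read from RefSeq's TAIR10.1 assembly as the 250 bases before the annotated gene start, written 5′ to 3′ on the gene's strand. The windows are chr1:27686422-27686671 on the plus strand for RABA6A and chr1:6267077-6267326 on the minus strand for RABA6B, where it lies inside CML27. Neither holds AACGG or its complement CCGTT, the core of the mitosis-specific activator element, nor TGGGCC or GGCCCA, the site II element bound by TCP factors, so no base is in capitals.
RABA6A: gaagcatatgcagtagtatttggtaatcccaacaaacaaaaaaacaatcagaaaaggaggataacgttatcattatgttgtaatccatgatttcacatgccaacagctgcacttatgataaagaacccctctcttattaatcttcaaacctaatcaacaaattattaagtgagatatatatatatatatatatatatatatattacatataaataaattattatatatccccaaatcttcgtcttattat
RABA6B: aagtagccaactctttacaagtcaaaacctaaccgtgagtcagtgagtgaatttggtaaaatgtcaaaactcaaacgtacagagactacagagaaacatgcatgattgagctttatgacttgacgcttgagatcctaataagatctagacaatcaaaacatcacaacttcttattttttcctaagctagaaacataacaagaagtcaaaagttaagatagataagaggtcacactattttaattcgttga

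RABA4B, which is known from the tips of growing root hairs, had 26.5 and 24.0 RPKM at 6 dpg, against 28.0 and 31.6 RPKM at 2 dpg, and was not called (log2 fold change -0.24, adjusted p = 0.134). The root hair marker list moved much further: 12 of its 13 tested genes were called lower, and its summed level was 117 to 134 RPKM at 6 dpg, against 349 to 360 RPKM at 2 dpg. RABA4D, the pollen tube member of the subgroup, had 11 and 6 reads at 6 dpg, against 17 and 17 at 2 dpg, and was not called (adjusted p = 0.0871). The table has 10 pollen markers, of which 4 were tested, 1 called higher and 2 lower, their summed level was 11.1 to 11.3 RPKM at 6 dpg, against 10.2 to 13.0 RPKM at 2 dpg, and the sperm-lineage genes MGH3 and DUO1 had no read in any library. In RABA5, which includes a Rab that sorts cargo to cell edges, RABA5D was called lower (log2 fold change -0.50) and RABA5B, RABA5C and RABA5E were not called. The RABA5D call was lost without 6 dpg replicate 2 (adjusted p = 0.0691) and under ribosomal protein scaling (adjusted p = 0.549).

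The Rabs of the early secretory pathway included the most abundant ones, and none of them was called. RABD2C, a Rab1-type GTPase of transport from endoplasmic reticulum to Golgi, was the most abundant Rab, with 183 and 173 RPKM at 6 dpg, against 228 and 205 RPKM at 2 dpg (log2 fold change -0.28, adjusted p = 0.0663). RABD2A (ARA5) had 37.0 and 32.4 RPKM at 6 dpg, against 45.9 and 41.4 RPKM at 2 dpg (log2 fold change -0.33, adjusted p = 0.0526). Both lay lower in each older library without passing the threshold. The clade D members analysed together made up 18.7 and 18.8% of Rab RPKM at 6 dpg, against 19.5 and 19.0% at 2 dpg. RABB1C, a Rab2-type GTPase and the second most abundant Rab, had 119 and 105 RPKM at 6 dpg and 108 and 106 RPKM at 2 dpg, which overlap (log2 fold change 0.069, adjusted p = 0.638).

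Of clade H, the Rab6-type Golgi GTPases, 3 members were analysed, and they differed in call. RABH1B had 63.8 and 66.8 RPKM at 6 dpg, against 85.0 and 82.4 RPKM at 2 dpg (log2 fold change -0.36, adjusted p = 0.0226). Its far scarcer relative RABH1C had 4.51 and 3.50 RPKM at 6 dpg, against 1.91 and 2.78 RPKM at 2 dpg (log2 fold change 0.79 ± 0.27 SE, adjusted p = 0.0326). RABH1D, the closest relative of RABH1C among the members, was not called (log2 fold change -1.002, adjusted p = 0.0619). It had 18 and 8 reads at 6 dpg, against 32 and 21 reads at 2 dpg. The ages did not overlap in any of the 3 genes, as was the case in 80.6% of all tested genes. RABH1B lost its call without either library of 6 dpg (adjusted p = 0.141 and 0.219), with length-adjusted offsets (adjusted p = 0.083) and under ribosomal protein scaling, where its log2 fold change was -0.04 (adjusted p = 0.897). RABH1C lost its call under DESeq2 (adjusted p = 0.132) and without replicate 1 of 6 dpg or of 2 dpg (adjusted p = 0.18 and 0.17). In clade E, the Rab8-type GTPases of secretion, RABE1D had 62.0 and 52.0 RPKM at 6 dpg and 58.2 and 58.1 RPKM at 2 dpg, which overlap (log2 fold change -0.028). RABE1C was called lower (log2 fold change -0.37, adjusted p = 0.0254), a call that was lost without either library of 6 dpg (adjusted p = 0.117 and 0.242) and with length-adjusted offsets (adjusted p = 0.091). Under ribosomal protein scaling its log2 fold change was -0.04 (adjusted p = 0.881).

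In clade C, the Rab18-type GTPases, RABC1 had 49.9 and 51.2 RPKM at 6 dpg, against 71.2 and 57.3 RPKM at 2 dpg, and was not called (log2 fold change -0.35, adjusted p = 0.0533). RABC2A, a partner of myosin, had 9.30 and 9.92 RPKM at 6 dpg, against 14.1 RPKM in both libraries at 2 dpg, and was called lower (log2 fold change -0.55, adjusted p = 0.00588). RABC2B had 1.89 and 1.57 RPKM at 6 dpg, against 2.32 and 2.76 RPKM at 2 dpg, a similar log2 fold change of -0.54 on fewer reads that was not called (adjusted p = 0.105). All 3 lay lower in both older libraries, and the RABC2A call was lost without 6 dpg replicate 1 (adjusted p = 0.0634) and under ribosomal protein scaling (log2 fold change -0.23, adjusted p = 0.45).

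On the way to the vacuole 1 endosomal Rab rose and 4 vacuolar Rabs fell. RABF2B (ARA7), the Rab5-type GTPase of late endosomes, had 70.5 and 73.7 RPKM at 6 dpg, against 57.7 and 54.9 RPKM at 2 dpg, and rose (log2 fold change 0.36, adjusted p = 0.0246). The plant-specific Rab5 relative RABF1 (ARA6) had 31.6 and 28.3 RPKM at 6 dpg, against 38.2 and 34.4 RPKM at 2 dpg, and was not called (log2 fold change -0.27, adjusted p = 0.0895). Both genes separated the ages, in opposite directions. The RABF2B call was lost without either library of 6 dpg (adjusted p = 0.126 and 0.194).

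In clade G, the Rab7-type GTPases of the vacuole membrane, 4 of 7 members fell (RABG3D, RABG2, RABG3A and RABG3F), none rose, and the median log2 fold change was -0.49. RABG3D had 12.3 and 11.6 RPKM at 6 dpg, against 27.3 and 22.2 RPKM at 2 dpg (log2 fold change -1.05, adjusted p = 0.000368). RABG3C, whose protein is 94.2% identical to it, had 16.6 and 16.8 RPKM at 6 dpg, against 16.8 and 19.0 RPKM at 2 dpg, and was not called (log2 fold change -0.099). RABG3B, which takes part in autophagy during xylem formation, had 18.2 and 15.1 RPKM at 6 dpg and 15.8 and 17.1 RPKM at 2 dpg, which overlap. Clade G made up 13.4 and 13.3% of Rab RPKM at 6 dpg, against 15.9 and 16.0% at 2 dpg, and clade F 7.86 and 8.41% at 6 dpg, against 6.28 and 6.30% at 2 dpg. These shares do not depend on the scaling, whereas under ribosomal protein scaling only 2 clade G members stayed called lower, RABG3D and RABG2. The RABG3F call was also lost without 6 dpg replicate 2 (adjusted p = 0.115).

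**Figure D3:**
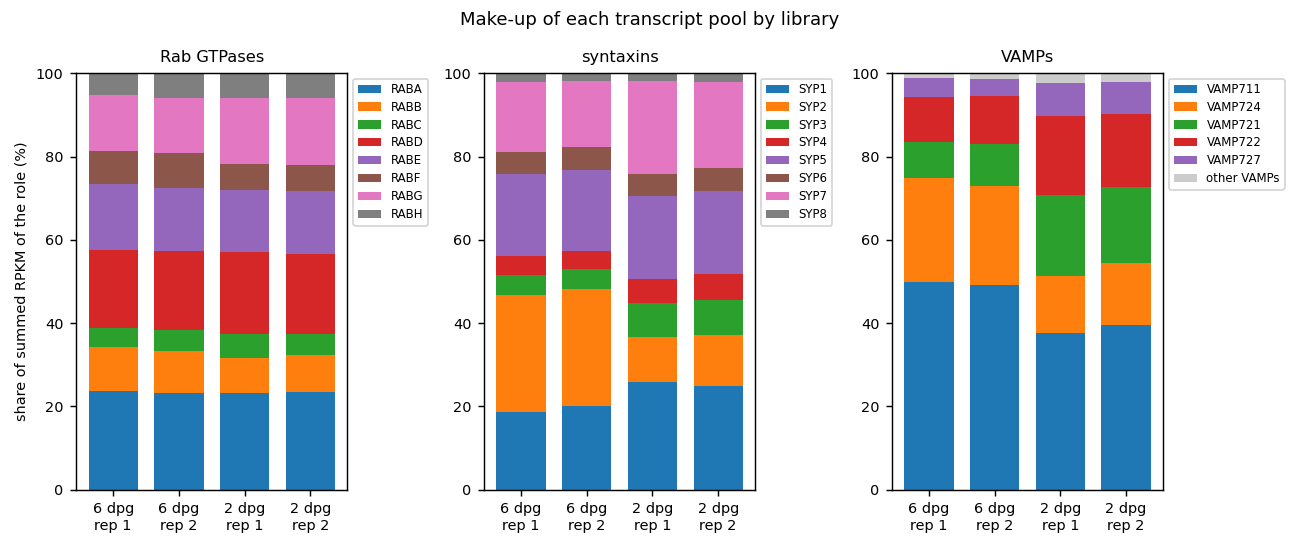
Share of summed RPKM (y axis, %) in the 4 libraries (x axis, 6 dpg left of 2 dpg). Bars show each clade of Rabs, each family of syntaxins and each abundant VAMP, among the members analysed. Clade A keeps 23.2 to 23.8% of the Rab pool in all 4 libraries, while clade G takes a smaller share and SYP2, VAMP711 and VAMP724 take larger shares in both libraries at 6 dpg.

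Among syntaxins the largest rise in abundant transcript was that of SYP23, a Qa-SNARE of the prevacuolar and vacuolar SYP2 family. SYP23 (chromosome 4, 9865103 to 9867022, plus strand) had 121 and 116 RPKM at 6 dpg, against 36.8 and 40.9 RPKM at 2 dpg, a log2 fold change of 1.61 ± 0.12 (SE, adjusted p = 1.82e-05). The older libraries had about 3.05-fold more of it on average. SYP23 made up 28.2% of the summed syntaxin RPKM in both libraries at 6 dpg, against 10.8 and 12.3% at 2 dpg. SYP21 and SYP22 of its family were not analysed and are not in that sum. SYP23 was the most abundant of the syntaxins analysed at 6 dpg, whereas at 2 dpg SYP71 (mean 71.9 RPKM) and SYP51 (mean 47.4 RPKM) lay above it. Its nearest relative among the members, SYP24, had at most 3 reads in a library.

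The plasma membrane family SYP1 had 2 members called higher, 1 called lower and 3 not called. SYP111, known as KNOLLE, is the syntaxin of cytokinesis, made in dividing cells and placed in the cell plate. KNOLLE (chromosome 1, 2709632 to 2710912, minus strand, coding sequence in 1 exon) had 9.36 and 10.6 RPKM at 6 dpg, against 24.4 and 22.4 RPKM at 2 dpg. It fell by 1.23 on the log2 scale (SE 0.13, adjusted p = 9.27e-05), and the ages were far apart. SYP112, the other member of the SYP11 subfamily, had 2.37 and 1.88 RPKM at 6 dpg, against 0.431 and 0.749 RPKM at 2 dpg. It rose by 1.88 ± 0.35 (SE, log2 scale, adjusted p = 0.00202), the largest rise of any called member, on 65 and 42 reads at 6 dpg and 12 and 17 reads at 2 dpg. SYP112 made up 17.7 ± 3.59% of the SYP11 pool at 6 dpg, against 2.49 ± 1.06% at 2 dpg (SD, n = 2 each), so KNOLLE remained the larger transcript of the subfamily at both ages.

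Most markers of dividing cells fell as KNOLLE did. Of 19 tested markers 13 were called lower and none higher, with a median log2 fold change of -0.85, and their summed level was 44.7 to 45.7 RPKM at 6 dpg, against 86.2 to 93.5 RPKM at 2 dpg. The mitotic kinase gene AUR1 changed most (log2 fold change -1.87) and CDC20.1, an activator of the anaphase-promoting complex, fell by 1.47 on the log2 scale. The 6 markers not called included CYCB2;1 (log2 fold change -0.85) and the cytokinesis and spindle genes POK2 (0.95), POK1 (0.42), TPX2 (0.25), TES (NACK2, 0.054) and HIK (-0.11). Under ribosomal protein scaling 8 of the markers were called lower and 1 higher, while KNOLLE stayed called lower (log2 fold change -0.91). NPSN11, the Qb-SNARE that joins KNOLLE in a fusion complex, had 9.84 and 7.91 RPKM at 6 dpg, against 18.4 and 17.6 RPKM at 2 dpg (log2 fold change -1.02, adjusted p = 0.00036). KEULE (KEU), the Sec1/Munc18 protein that holds KNOLLE open for pairing, had 30.8 and 29.5 RPKM at 6 dpg, against 19.0 and 19.8 RPKM at 2 dpg, and rose (log2 fold change 0.64, adjusted p = 0.00148). Its relative SEC1B was not called (log2 fold change 0.47, adjusted p = 0.0603). All 19 markers had reads. The part of the marker change in the KNOLLE value was not tested.

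**Figure D4:**
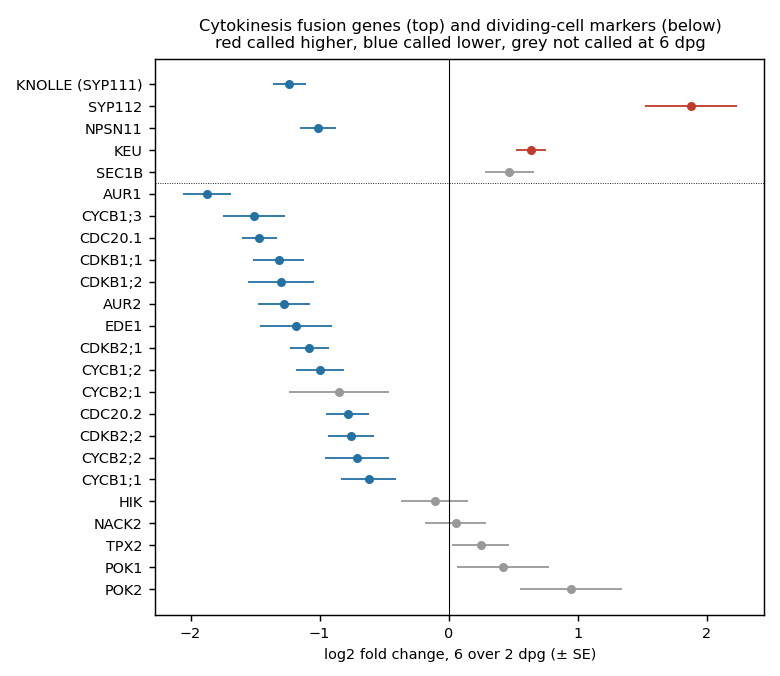
Log2 fold change of 6 over 2 dpg (x axis, points, with SE bars) for 5 genes of cytokinetic membrane fusion, above the dotted line, and the 19 tested dividing-cell markers below it; red was called higher, blue lower and grey not called. KNOLLE at -1.23 and NPSN11 at -1.02 lie within the range of the called markers, while SYP112 and KEU lie to the right of 0.

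The upstream windows of KNOLLE, SYP112 and RABA2B are shown because KNOLLE and SYP112 moved apart and RABA2B fell with KNOLLE; they were chosen after the values were seen. They lie at chr1:2711001-2711250 on the minus strand for KNOLLE (SYP111), chr2:7941528-7941777 on the plus strand for SYP112 and chr1:2275780-2276029 on the plus strand for RABA2B, on TAIR10.1. Capitals mark AACGG or its complement CCGTT. The match begins 12 bases before the annotated start in KNOLLE and 18 bases before it in RABA2B, and SYP112 has neither. RABA3, RABA2A and RABA2C, which fell as well, also have neither in their windows.
SYP111: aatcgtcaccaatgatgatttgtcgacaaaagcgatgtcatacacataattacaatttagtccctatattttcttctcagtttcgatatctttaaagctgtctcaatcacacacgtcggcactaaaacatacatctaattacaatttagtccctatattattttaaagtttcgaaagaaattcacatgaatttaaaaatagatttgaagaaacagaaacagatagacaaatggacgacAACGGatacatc
SYP112: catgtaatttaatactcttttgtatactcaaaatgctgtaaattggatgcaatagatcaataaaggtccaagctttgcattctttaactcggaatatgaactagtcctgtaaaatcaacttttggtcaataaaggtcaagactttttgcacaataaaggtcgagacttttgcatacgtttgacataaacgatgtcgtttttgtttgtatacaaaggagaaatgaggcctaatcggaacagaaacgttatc
RABA2B: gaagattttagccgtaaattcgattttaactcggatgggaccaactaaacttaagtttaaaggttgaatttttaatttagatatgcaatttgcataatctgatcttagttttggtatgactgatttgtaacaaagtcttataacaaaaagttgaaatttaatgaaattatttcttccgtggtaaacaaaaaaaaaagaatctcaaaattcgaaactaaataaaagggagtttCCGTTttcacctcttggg

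AACGG on either strand lay in 20.4% of the windows of 21402 protein-coding genes of the table and in 22 of 80 member windows (27.5%). It was in 8 of the 20 windows of members called lower (40%), in 4 of 12 of those called higher (33.3%) and in 6 of 36 of tested members not called (16.7%). In the dividing-cell list 12 of 19 windows held it. TGGGCC lay in 13.8% of all windows, in 12 member windows (15.0%), in 1 window of the members called lower, in 1 of those called higher and in 9 of 36 of tested members not called (25%). These are matches of letters and not shown binding sites.

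Among the other plasma membrane syntaxins, which serve secretion, defence and tip growth, 1 of 4 tested was called. PEN1 (SYP121), which is needed for penetration resistance against powdery mildew, had 22.1 and 21.2 RPKM at 6 dpg and 22.4 and 21.0 RPKM at 2 dpg, which overlap (log2 fold change -0.0061 ± 0.12 SE). SYP132, the general plasma membrane syntaxin, had 28.9 and 26.2 RPKM at 6 dpg, against 25.9 RPKM in both libraries at 2 dpg, and was not called (log2 fold change 0.093). SYP122, the pathogen-responsive relative of PEN1, had 14.3 and 21.3 RPKM at 6 dpg, against 12.4 and 10.2 RPKM at 2 dpg (log2 fold change 0.65 ± 0.19 SE, adjusted p = 0.0181). Its libraries of 6 dpg differed more from each other than those of 2 dpg, and the call was lost without 6 dpg replicate 2 (adjusted p = 0.18) and without 2 dpg replicate 2 (adjusted p = 0.069). SYP123, the root hair syntaxin, had 1.70 and 0.940 RPKM at 6 dpg, against 1.96 and 1.89 RPKM at 2 dpg, and was not called (log2 fold change -0.53, adjusted p = 0.185).

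The Golgi syntaxin SYP32 fell (log2 fold change -0.64, adjusted p = 0.00153), a call that was lost under ribosomal protein scaling (adjusted p = 0.254), while its relative SYP31 was not called. SYP51, a Qc-SNARE of the prevacuolar and vacuolar membranes, and SYP81, the Qa-SNARE of the endoplasmic reticulum, were called higher (log2 fold changes 0.37 and 0.44). Each of these calls was lost in more than 1 fit that left out a library (adjusted p up to 0.216 for SYP51 and 0.269 for SYP81), and that of SYP81 also under DESeq2 (adjusted p = 0.154). SYP42 and SYP43 of the trans-Golgi network, SYP61, SYP52 and the abundant SYP71 were not called.

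VAMP711, an R-SNARE of the vacuole membrane, was the most abundant VAMP at both ages and the most abundant member at 6 dpg, while at 2 dpg RABD2C lay above it. It had 268 and 243 RPKM at 6 dpg, against 141 and 136 RPKM at 2 dpg, and rose by 0.88 ± 0.12 (SE, log2 scale, adjusted p = 0.000309). VAMP724 (chromosome 4, 8979889 to 8981768, minus strand), of the VAMP72 family of plant-specific secretory R-SNAREs, had 134 and 118 RPKM at 6 dpg, against 51.2 and 51.3 RPKM at 2 dpg, and rose by 1.30 ± 0.12 (SE, log2 scale, adjusted p = 5.14e-05). In both genes the lowest library at 6 dpg was well above the highest at 2 dpg.

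The other members of VAMP72 did not share that rise: of 6 tested, 2 were called lower and none higher, and under ribosomal protein scaling none was called. VAMP721, which with VAMP722 carries secretory cargo to the plasma membrane and to the cell plate, had 46.8 and 49.3 RPKM at 6 dpg, against 73.5 and 63.1 RPKM at 2 dpg (log2 fold change -0.51, adjusted p = 0.0075). VAMP722, 95.9% identical to it in protein, had 57.1 and 57.0 RPKM at 6 dpg, against 71.5 and 59.9 RPKM at 2 dpg, and was not called (log2 fold change -0.20, adjusted p = 0.193). Both lay lower in both older libraries. The VAMP721 call was lost without 6 dpg replicate 1 (log2 fold change -0.47) and under ribosomal protein scaling (log2 fold change -0.18, adjusted p = 0.51). The coding sequences of the pair are 90.1% identical, and the assignment of reads between them was not tested.

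VAMP727, which works between endosomes and the vacuole, had 24.7 and 20.7 RPKM at 6 dpg, against 29.2 and 26.9 RPKM at 2 dpg, and was not called (adjusted p = 0.0776). The scarce VAMP726 had 1.26 and 1.24 RPKM at 6 dpg, against 2.35 and 2.43 RPKM at 2 dpg, and was called lower (log2 fold change -0.93, adjusted p = 0.0337), a call lost in each fit that left out a library (adjusted p = 0.11 to 0.133), under DESeq2 (adjusted p = 0.236), with length-adjusted offsets (adjusted p = 0.119) and under ribosomal protein scaling (adjusted p = 0.264). Both genes separated the ages. As a share of the VAMP72 pool, VAMP724 made up 49.8 and 46.9% at 6 dpg, against 21.8 and 24.6% at 2 dpg, while VAMP721 made up 17.3 and 19.6% at 6 dpg, against 31.4 and 30.2% at 2 dpg. The leading secretory R-SNARE transcript was thus VAMP724 at 6 dpg, and VAMP721 at 2 dpg by a small margin over VAMP722 at 30.5 and 28.7%.

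Relatives could be compared in 21 pairs. Pairs were formed only among the members analysed, so a closer relative may lie among the genes not analysed. Not every pair is close: RABF1 and RABF2B share 57.3% of aligned residues. Among the 21 pairs of members that are each other's closest protein and were both tested, 12 had 1 member called, 6 had none, 2 were called in the same direction (RABA2B with RABA2C, RABA1B with RABA1D) and 1 in opposite directions (RABA6A with RABA6B). A call for 1 member and none for the other does not show that they differ, and the difference within pairs was not tested. The highest coding identity of any member to its closest relative was 91.6%, between the neighbouring genes VAMP723 and VAMP722.

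**Figure D5:**
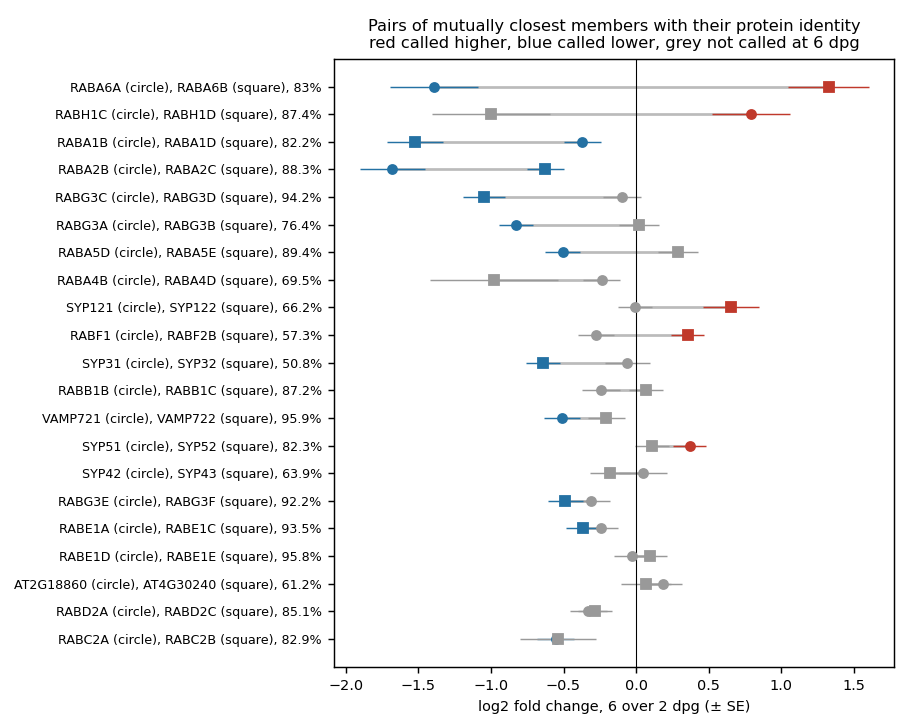
Log2 fold change of 6 over 2 dpg (x axis, with SE bars) for both genes of 21 pairs mutually closest among the members analysed. Pairs (y axis, with protein identity) are ordered by the distance between their points. Red was called higher, blue lower and grey not called. RABA6A and RABA6B, at -1.39 and 1.32, stand farthest apart, and RABG3C and RABG3D differ in call at 94.2% identity.

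The partners of Rabs and SNAREs were followed in 7 lists of trafficking genes, of which 88 genes were tested. Together 16 were called higher (18.2%) and 30 lower (34.1%), with a median log2 fold change of -0.041, shares close to those of the members; under ribosomal protein scaling 22 were called higher and 9 lower. Among 15 regulators of Rabs 6 fell and 2 rose. GDI2, a GDP dissociation inhibitor that returns Rabs to the cytosol, fell by 0.67 on the log2 scale, and PRA1.B4, a prenylated Rab acceptor, fell by 1.77. VPS9B, of the family of exchange factors for Rab5-type GTPases, rose (log2 fold change 1.00), and so did SCD2, a partner of the RABE exchange factor SCD1 (0.60). Under ribosomal protein scaling GDI2 lost its call, and PRA1.B4, VPS9B and SCD2 kept theirs.

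Of 12 other SNAREs, 4 rose and 3 fell. The Golgi SNAREs MEMB11 and GOS11 rose (log2 fold changes 1.26 and 0.94), and NPSN11 and ATBET12, a Bet1-type SNARE, fell (log2 fold changes -1.02 and -0.67). In the list of 8 Sec1/Munc18 and disassembly genes, KEU rose, and NSF, the ATPase that pulls spent SNARE complexes apart, fell by 1.00 on the log2 scale, as did the adaptor GSNAP by 0.66. NSF had 14.2 and 17.3 RPKM at 6 dpg, against 35.1 and 28.0 RPKM at 2 dpg, which do not overlap.

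Tethers and coats were divided as well. Of 17 exocyst genes, which tether secretory vesicles, 5 fell and 2 rose. EXO84A and EXO70H4 fell most (log2 fold changes -2.85 and -1.43), and EXO70B2 and EXO70A1 rose (0.50 and 0.47). The EXO84A value rests on 5 and 3 reads at 6 dpg, against 33 and 27 reads at 2 dpg. Of 9 vacuolar tether and retromer genes, SNX1 rose (0.87) and the retromer genes MAG1 and VPS35A fell (-0.46 and -0.42). Among 14 ARF genes and their exchange factors 6 fell and 2 rose, with SAR1B of the COPII coat at -1.28, ARFA1F at -1.27, ARFA1E at 0.71 and GN, the exchange factor GNOM, at 0.52. Among 13 clathrin and dynamin genes 5 fell and 4 rose, led by DL1B (-1.20) and HAP13 (-0.62) and by the clathrin light chain gene AT3G51890 (1.80) and DL1E (0.60). Of the genes named from the lists, MAG1 (log2 fold change -0.13), VPS35A (-0.11), HAP13, ATBET12 and GSNAP, like GDI2, lost their calls under ribosomal protein scaling, under which no vacuolar tether or retromer gene was called lower.

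By the authors' deposited table, an adjusted p under 0.05 was reached by 23 members, and all 23 were among the 32 called here, 7 of them higher and 16 lower. Of the 32 calls, 15 held under all 11 alternatives tried. They are 7 higher (SYP112, SYP23, RABA6B, VAMP724, VAMP711, RABA1G and RABA1A) and 8 lower (RABA3, RABA2B, RABA1D, RABA6A, SYP111, RABA1E, RABG3D and RABG2).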

How the data were processed

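Total RNA of whole seedlings was extracted with TRIzol and made into 4 libraries with the NEBNext Ultra RNA kit, per the labels' protocols; that kit does not mark strand. The tools named, per the submitters' processing notes and without roles, are DESeq 1.18.0, HTSeq 0.6.1, TopHat2 2.0.12, Bowtie2 2.2.3 and CASAVA 1.8; the genome build is not given in the sources used here, but 98.3% of 26398 matched genes lie inside the TAIR10.1 gene of the same locus. The authors deposited raw read counts per gene, FPKM per library, used only to recover library totals, and an adjusted p-value. The table as held covers 79.9 to 81.0% of those totals.

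Counts were tested with edgeR 4.0.16 (TMM on recovered totals, filterByExpr at its minimum of 10 counts, age as the only term, quasi-likelihood test, Benjamini-Hochberg adjustment over all tested genes), in R 4.3.3; the code was tested on simulated data. Alternatives were DESeq2 1.42.0, other filters, totals and scalings, length offsets, a replicate block and leaving out each library. Deviations from the age mean did not correlate between libraries of the same replicate number (-0.00976 over all tested genes). A plate or batch shared by some libraries that touches only some genes cannot be seen this way. Protein and coding identities come from alignments of the reference coding sequences of 80 members, made with Biopython 1.88. Values per library are given for the called members that changed most (6 each way), the most abundant of each role and 23 landmark members; some others were added after their values were seen, as were the genes whose sequence is shown. From other lists, up to 2 called genes each way are named. The members and lists were chosen with earlier results of these data known. The count floor covers counting error only.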

Additional observations from a re-analysis of the deposited data

How the results depend on the processing

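The count of members called higher (12) stayed between 8 and 14 over all alternatives, with 8 to 11 when a library was left out. The 20 members called lower became 8 under ribosomal protein scaling and 13 to 28 when a library was left out, with the lowest count without 6 dpg replicate 2. Trafficking list genes called higher numbered 11 to 20 without a library, and those called lower became 9 under ribosomal protein scaling, 20 to 29 without a library and 45 with length-adjusted offsets. The median log2 fold change of tested members was -0.10 with length-adjusted offsets, 0.088 under ribosomal protein scaling and -0.32 to -0.18 when a library was left out. A fit without 1 library assumes that the lone library of its age varies like those of the other age. The replicate block gave 12 members higher and 20 lower, a median of -0.24, and 27 list genes lower. No label says that the replicate numbers pair the libraries.

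Of 363 alternative values for named members, 311 stayed on their side of the threshold, 29 lost and 9 gained a call, and 14 changed sign, all in members that were not called. Under ribosomal protein scaling these were RABD2C (0.042), SYP121 (0.32), RABA4B (0.068), RABE1D (0.29), RABF1 (0.051), VAMP722 (0.13) and VAMP727 (0.018). With length-adjusted offsets they were SYP121 (0.043) and RABE1D (0.089). Leaving out a library gave -0.060 to 0.047 for SYP121, -0.16 to 0.098 for RABE1D and -0.12 to 0.15 for RABG3B. The cause was not tested. The 14 members not tested had at most 20 reads in a library, which limits what could be detected in them at this depth.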
